A study of Homo sapiens with 8 samples.

Results

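Ribosome biogenesis and nucleolar genes encode the proteins that transcribe, modify, cleave and assemble ribosomal RNA in the nucleolus. A set of 36 such genes was taken by symbol from the deposited tables of 25369 genes, and all 36 were present and had enough reads to be tested. The libraries were made from poly(A) RNA of the human neuroblastoma cell line CHP212, in 4 groups of 2 independent biological replicates. The groups were WT cells given DMSO at 0.2%, WT cells given Nutlin-3a at 10 uM, FAM193A KO cells given DMSO at 0.2% and FAM193A KO cells given Nutlin-3a at 10 uM, each for 12 h. Nutlin-3a stabilizes p53 by displacing it from its ubiquitin ligase, MDM2. KO stands for cells in which FAM193A was knocked out, and the labels name 1 KO population, so that the loss of the gene and any other property of that population cannot be told apart. All 4 groups share the parental line with its high MYCN transcript level, and the DMSO groups serve as the controls for Nutlin-3a.

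Ribosome production starts when RNA polymerase I copies the ribosomal DNA into a long precursor. Box C/D and box H/ACA small nucleolar ribonucleoproteins (snoRNPs) then methylate and pseudouridylate it, and processing factors cut and fold it into the 18S RNA of the small subunit and the 28S and 5.8S RNAs of the large subunit. Genes of this pathway are textbook targets of MYC family proteins, which bind the E-box CACGTG as dimers with MAX. MYCN is the family member that drives many neuroblastomas. Activated p53 is known to lower ribosomal RNA synthesis, and surplus ribosomal proteins in turn hold back MDM2.

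The E-box was looked for in the members' promoters, because the MYCN transcript was measured in the same libraries. RefSeq promoters of the GRCh38.p14 build, from 250 bases before to 50 bases after a gene's start, were matched by symbol for 30 of the 36 members, 8 of them with 2 promoters. On either strand CACGTG, which reads the same on both, was present in 14 of those 30 members (46.7%). It was present in 7.26% of the 35116 promoters of the table, each 300 bases long, in 12.2% of the 11210 tested genes that were matched, and in 31 of 112 matched other ribosome biogenesis genes (27.7%). Its first base lay between 31 bases before and 36 bases after the start in all 14 members, within 50 bases of the start, against 36.9% of the 2821 sites in the table. The 8 windows below show that position with 15 bases on each side, 5′ to 3′ on the strand of the gene, with the E-box in capitals.
DDX21, RNA helicase of the nucleolus, chr10:68956601-68956636, plus strand: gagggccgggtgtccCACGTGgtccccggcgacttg
FBL, rRNA methyltransferase, chr19:39846353-39846388, minus strand: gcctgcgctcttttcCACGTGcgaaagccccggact
GNL2, nucleolar GTPase, chr1:37595914-37595949, minus strand: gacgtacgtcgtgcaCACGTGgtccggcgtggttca
GNL3, nucleostemin, chr3:52686023-52686058, plus strand: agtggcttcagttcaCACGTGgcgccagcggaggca
NAT10, RNA cytidine acetyltransferase, chr11:34105599-34105634, plus strand: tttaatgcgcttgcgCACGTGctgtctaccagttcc
RRP9, U3 snoRNP protein, chr3:51941889-51941924, minus strand: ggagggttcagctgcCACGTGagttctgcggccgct
UTP20, small subunit processing factor, chr12:101280080-101280115, plus strand: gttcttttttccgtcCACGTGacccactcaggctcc
WDR43, small subunit processing factor, chr2:28894655-28894690, plus strand: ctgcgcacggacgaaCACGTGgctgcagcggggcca
The other 6 members with the motif were BYSL, GAR1, MYBBP1A, NOP14, NOP2 and PES1. The GC box GGGCGG, on either strand, was in 76.7% of the matched members and 74.8% of matched tested genes, and the ETS-type site CCGGAAG in 9 of 30 members and 20.2%. Of the 112 matched other ribosome biogenesis genes 66.1% held the GC box and 46.4% the ETS-type site. A match says that the letters are in the window and nothing about binding, and no binding was measured in these samples.

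Read totals ran from 28390405 to 38010075 per library, and the lowest count of a member in any library was 614 reads. CDKN1A, the p21 gene and a p53 target, stood at 71.8 and 72.9 CPM under DMSO and 3124 and 2938 under Nutlin-3a in WT cells, and 48.6 and 48.1 under DMSO and 1712 and 1653 under Nutlin-3a in KO cells. FAM193A was read in every library, at 44.1 and 39.9 CPM under DMSO and 50.4 and 44.5 under Nutlin-3a in WT cells, and 34.8 and 32.2 under DMSO and 42.0 and 38.1 under Nutlin-3a in KO cells, and such gene counts cannot show whether its reading frame was broken. Among 9 neuroblastoma markers none was at 0 reads in a whole group, although DBH, an enzyme of noradrenaline synthesis, stayed at 0.330 to 0.934 CPM in WT libraries. The summed CPM of 5 fibroblast markers (collagens, DCN and LUM) was 5127 to 5251 under DMSO and 5873 to 5892 under Nutlin-3a in WT cells, and 6549 to 6787 and 6822 to 7247 in KO cells. That of 7 epithelial markers was 585 to 605, 659.7 to 685, 258 to 283 and 219 to 234 in the same order, most of it KRT8 and KRT18. Most of the fibroblast sum was COL1A1 and COL3A1, and the genes of that list did not move together. Under DMSO LUM read 368 and 374 CPM in WT and 127 and 138 in KO cells. DCN read 5.81 and 6.67 CPM under DMSO in WT and 32.1 and 35.6 in KO cells. COL1A2 had 268 reads in WT DMSO replicate 2 and at most 41 in any other library. These lists moved with the groups and their part in the results below was not tested. Lists of blood, liver, muscle and endothelial markers summed to at most 15.4 CPM in any library. In 3 libraries (replicate 2 of WT DMSO, replicate 1 of WT Nutlin-3a and replicate 2 of KO Nutlin-3a) 17 to 39 genes had at least 20 reads against at most 2 in the other replicate, and 0 members were among them.

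The members differed widely in abundance. On the deposited RPKM scale, which corrects for gene length, NPM1 (nucleophosmin, a histone and ribosome chaperone) was highest in WT DMSO cells at 1098 ± 15 (SD, n = 2), followed by NCL (nucleolin) at 671 ± 13.8, FBL at 293 ± 4.28 and NOP56 at 209 ± 0.43. The lowest were POLR1A at 13.6 ± 0.55, UTP20 at 13.3 ± 0.21 and UTP15 at 8.87 ± 0.25, and the SD of POLR1A exceeds its gap to UTP20. The other 29 members lay between 15.1 (PPAN) and 143 (GNL3). The plot of RPKM by gene shows that the replicates of a group nearly coincided for most members.

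**Figure D1:**
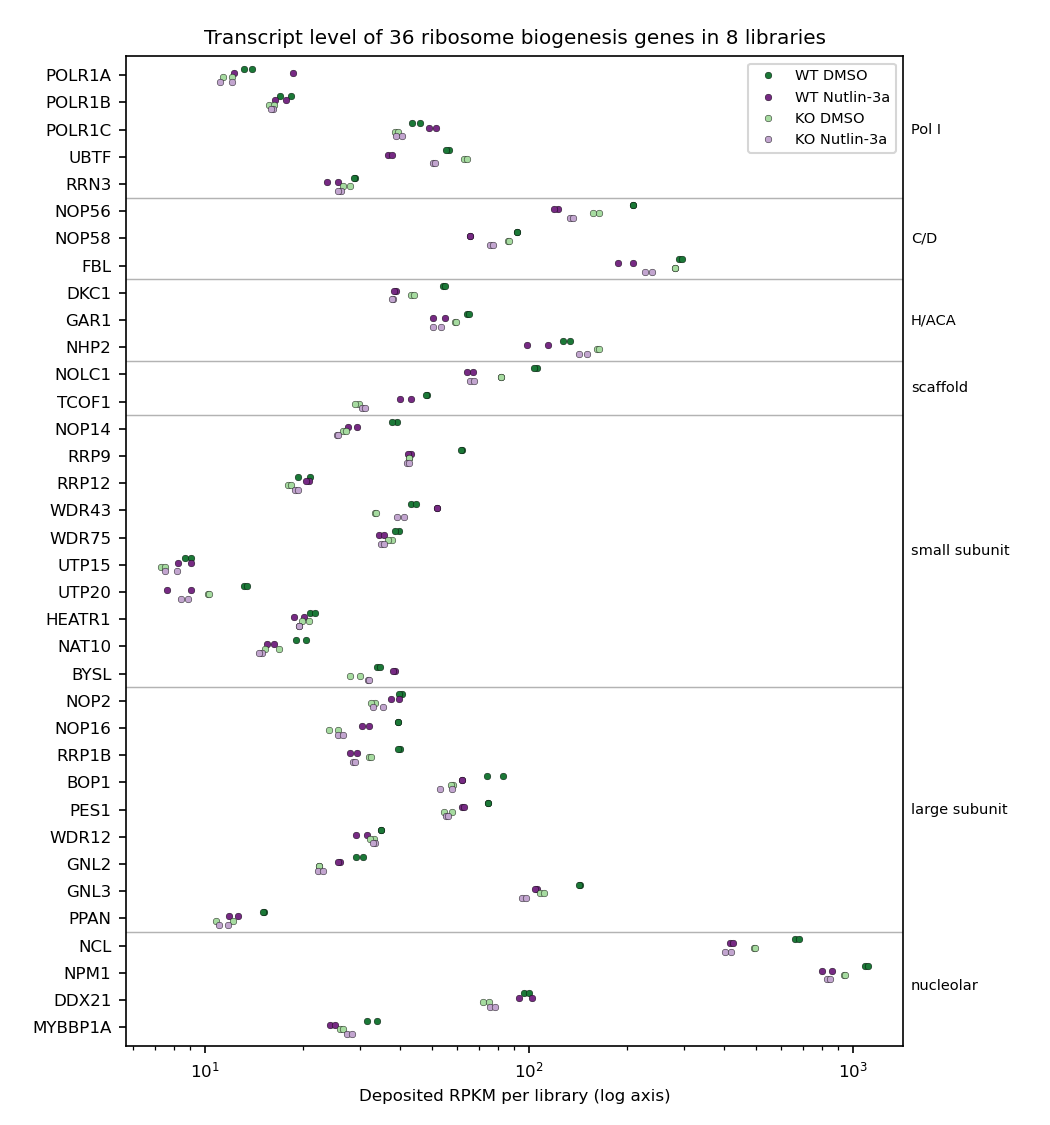
Deposited RPKM of the 36 members in each of the 8 libraries on a log axis, 1 point per library, colored by group and ordered by role. NPM1 and NCL are the highest in WT DMSO at 1098 and 671 RPKM and UTP15 the lowest at 8.87, and for most genes the WT DMSO points lie to the right of the other 3 groups.

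Added up, member transcripts were most abundant in WT DMSO cells. The summed CPM (read counts scaled to a common library size, with totals adjusted by the trimmed mean of M-values, TMM) was 9838 ± 59.2 in WT DMSO, 7701 ± 36.6 in KO DMSO, 7424 ± 13.7 in WT Nutlin-3a and 6813 ± 161 in KO Nutlin-3a cells (SD, n = 2). The sum was thus 24.5% lower with Nutlin-3a in WT cells and 11.5% lower with Nutlin-3a in KO cells. Against WT cells of the same treatment it was 21.7% lower in KO cells under DMSO and 8.23% lower under Nutlin-3a. NPM1 and NCL alone made up 36.3% to 39.5% of the sum. In bulk RNA, less RNA of these genes in every cell and a change in the mix of cells cannot be told apart.

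MYCN moved with that sum. It stood at 3381 and 3347 CPM under DMSO and 2108 and 2009.9 under Nutlin-3a in WT cells, and 2433 and 2471 under DMSO and 2005 and 1898 under Nutlin-3a in KO cells, so its WT DMSO libraries were the highest as well. In edgeR's quasi-likelihood test with Benjamini-Hochberg adjustment over 15879 genes, MYCN fell with Nutlin-3a in WT cells (log2 fold change -0.71, SE 0.05, adjusted p = 3.4e-10, where SE is the standard error) and in KO cells (-0.33, SE 0.05, adjusted p = 2.2e-05), and under DMSO it was lower in KO cells (-0.46, SE 0.05, adjusted p = 1.6e-07). Under Nutlin-3a the genotypes differed by -0.08 (SE 0.05) on the log2 scale, which was not called (adjusted p = 0.1696). The part of MYCN in the members' changes was not tested.

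**Figure D2:**
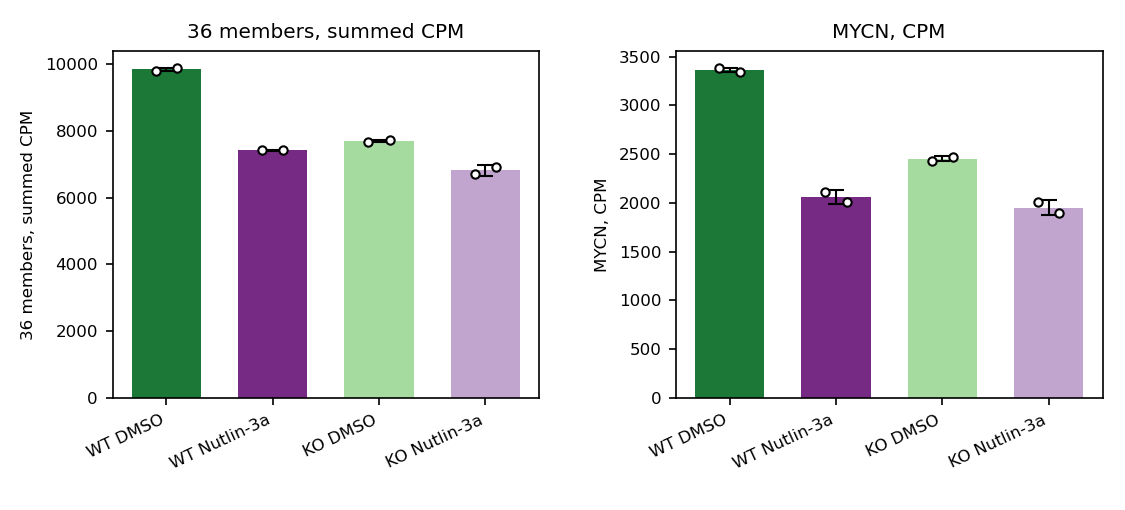
Summed CPM of the 36 members and CPM of MYCN in each of the 8 libraries by group, 1 point per library. Both are highest in WT DMSO, where the sum averages 9838 CPM, and the KO Nutlin-3a libraries have the lowest sums, 6813 CPM on average.

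Nutlin-3a lowered most members in WT cells and fewer in KO cells. Bracketed changes from here on are log2 fold changes, and a gene is called higher or lower at an adjusted p under 0.05. In WT cells 27 members fell, 3 rose and 6 were not called, with a median log2 fold change of -0.31 and a range from -0.79 to 0.24. Of all tested genes 29.2% were called lower and 29.4% higher, with a median of 0.02, and among the 8216 genes at least as abundant as the lowest member 38.9% were lower. The falls were mostly small, and 5 members (NOP56, UTP20, NOLC1, NCL and UBTF) fell by at least 1.5-fold, against 12.2% of all genes, while 0 rose as far, against 14% of all genes. In KO cells 14 members fell, 1 rose and 21 were not called, with a median of -0.09, against 20.6% of all genes lower and 18.1% higher, and 0 fell or rose by at least 1.5-fold, against 4.18% and 7.27% of all genes. Among genes at least as abundant as the lowest member 30.2% fell in KO cells, which is not far from the 38.9% of members. All 14 members that fell in KO cells were among the 27 that fell in WT cells (51.9% of these), and WDR43 rose in both genotypes. Over all genes 2715 fell in both, which is 58.6% of the 4634 lower in WT cells and 82.95% of the 3273 lower in KO cells. The plot of both responses shows the KO values nearer to 0 for most members. All 27 members that fell in WT cells had a higher log2 fold change in KO cells. So had 4276 of the 4634 genes lower in WT cells, so a weaker fall in KO cells was not particular to the members. Without WT DMSO replicate 2, 1 member in place of 3 rose in WT cells.

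**Figure D3:**
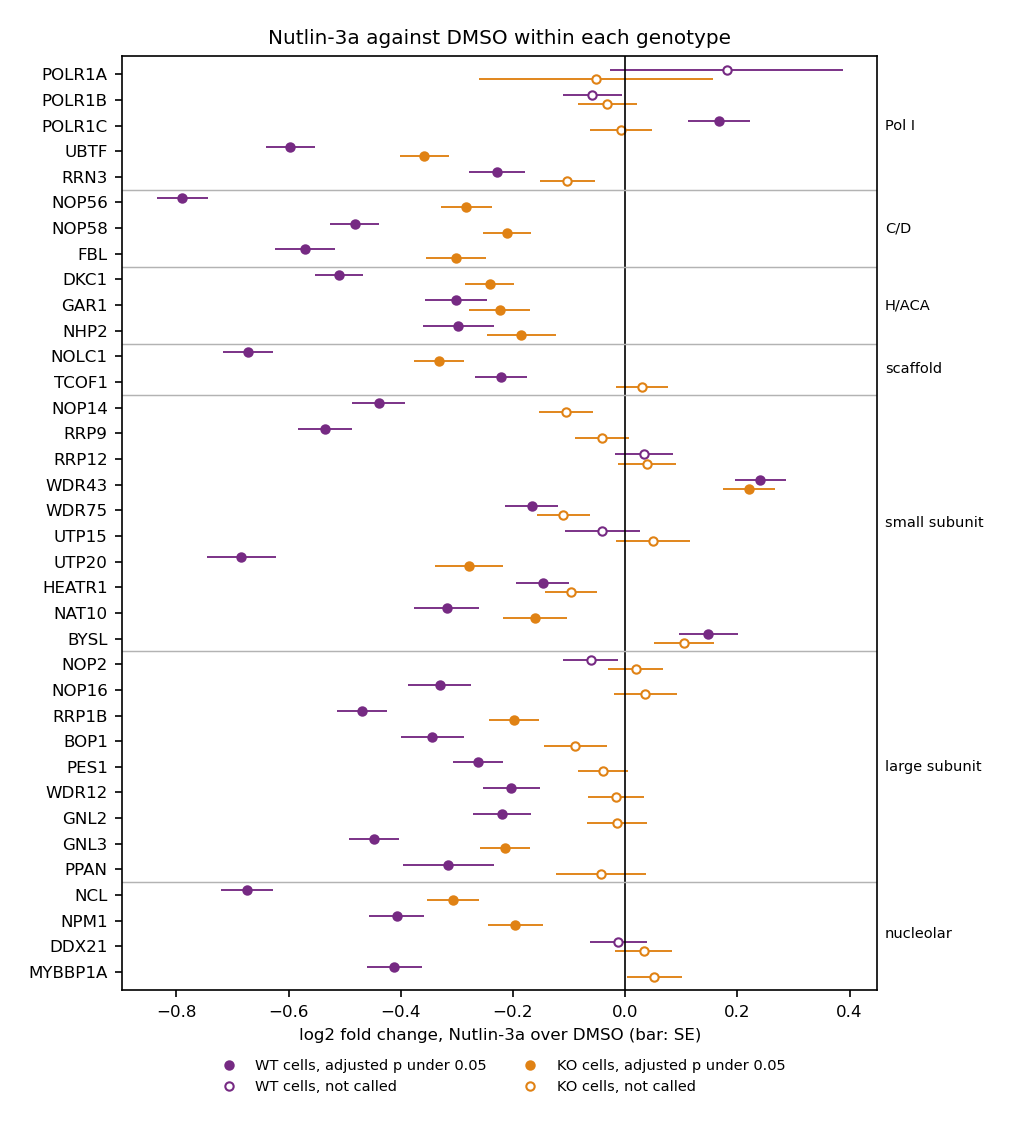
Log2 fold change of Nutlin-3a over DMSO for each member in WT and in KO cells, with the SE as a bar and filled points for an adjusted p under 0.05. The WT values reach down to -0.79 at NOP56, while the lowest KO value is -0.36 at UBTF.

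The difference of the responses, KO minus WT, was itself tested. It was positive and called for 19 members, so that the change with Nutlin-3a was less negative in KO cells, and negative and called for 0. Of all genes 14.2% had a called positive and 13.4% a called negative difference, and of genes at least as abundant as the lowest member 19.9% and 18.1%. At an unadjusted p under 0.05 the edgeR test gave 21 positive and 1 negative differences among the members, and the DESeq2 Wald test called 18 positive and 0 negative. By at least 1.5-fold 0 of the differences were called, against 4.91% of all genes above and 4.63% below 0. The median difference over the members was 0.22, against -0.00 over all genes. The 19 came down to 12 without KO Nutlin-3a replicate 2, and 1 negative difference was called without WT Nutlin-3a replicate 1 (POLR1A) or replicate 2 (POLR1C).

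KO cells had less of nearly every member before any Nutlin-3a was given. Under DMSO 33 members were lower in KO cells, 2 were higher (UBTF and NHP2) and 1 was not called (POLR1A), with a median log2 fold change of -0.35 and a range from -0.77 to 0.26. Of all genes 30.1% were called lower and 31.4% higher, and among genes at least as abundant as the lowest member 38.6% were lower. By at least 1.5-fold, 3 members were lower (TCOF1, NOP16 and RRP9) and 0 higher, against 12% and 15.8% of all genes. The 2 KO libraries lay below both WT libraries for 34 members, as for 40.1% of all tested genes. Under Nutlin-3a 18 members were lower in KO cells, 4 higher (UBTF, NHP2, NOP58 and FBL) and 14 not called, with a median of -0.15, against 30.4% and 32.7% of all genes (36.9% and 32.5% of genes at least as abundant as the lowest member), and 0 were lower or higher by at least 1.5-fold, against 14% and 16.7%. Of all called genes under Nutlin-3a 51.8% were higher in KO cells, and 62.4% with limma-trend on log2(RPKM + 0.1), where 7 members were higher and 12 lower. The 4 came down to 2 without KO Nutlin-3a replicate 2. The WT DMSO libraries enter both the WT response and this comparison under DMSO, so a high value there lowers both log2 fold changes together.

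**Figure D4:**
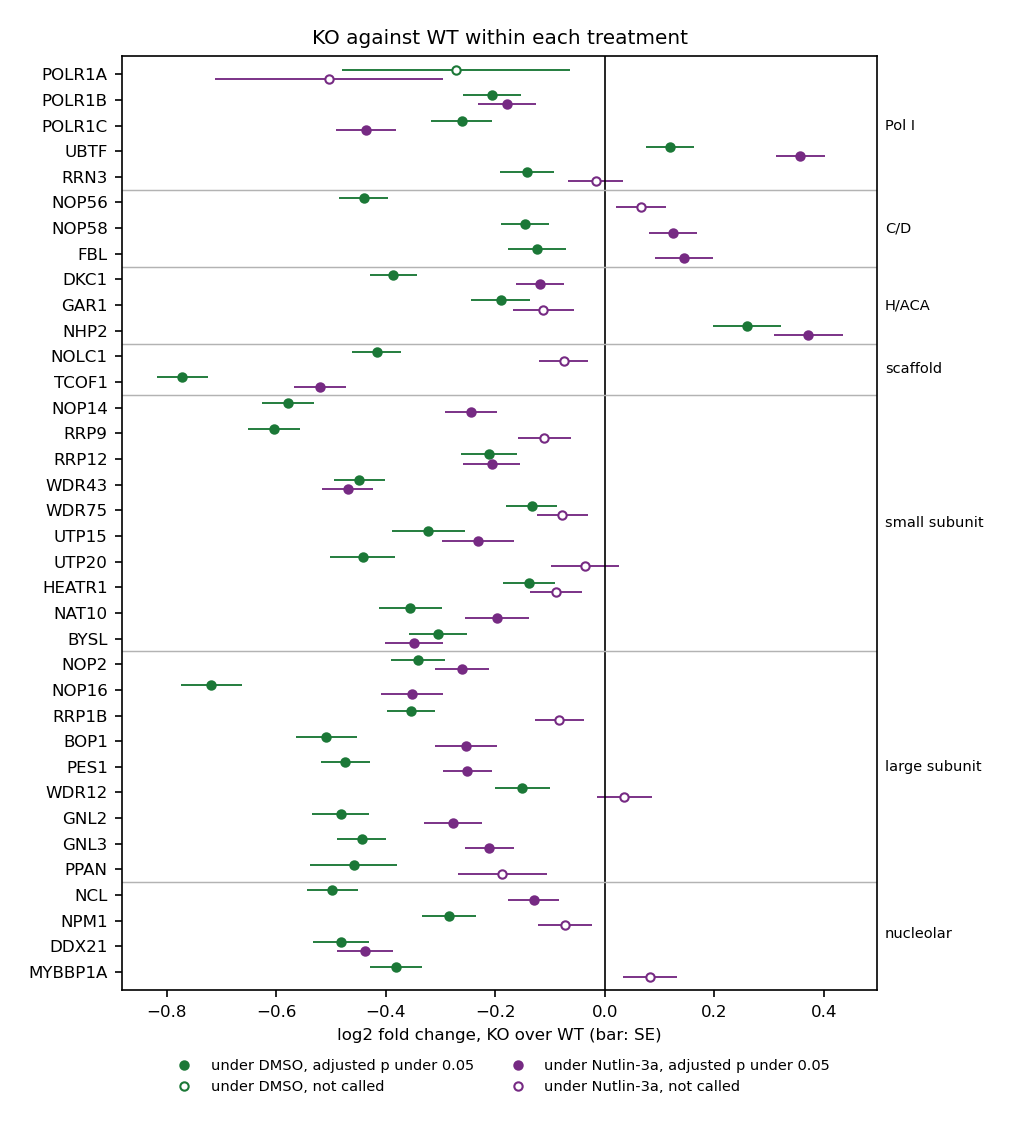
Log2 fold change of KO over WT cells for each member under DMSO and under Nutlin-3a, with the SE as a bar and filled points for an adjusted p under 0.05. Under DMSO every member but UBTF and NHP2 lies left of 0, with TCOF1 lowest at -0.77, and under Nutlin-3a most values lie nearer to 0.

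Among the 5 genes of RNA polymerase I and its factors, UBTF took a course of its own. UBTF encodes the HMG-box protein that keeps ribosomal DNA open for transcription, and it stood at 312 and 307 CPM under DMSO and 202 and 207 under Nutlin-3a in WT cells, and 331 and 341 under DMSO and 259 and 265 under Nutlin-3a in KO cells. Both KO groups lay above the WT group of the same treatment, and within each genotype both Nutlin-3a libraries lay below both DMSO libraries. UBTF fell in WT (-0.60, SE 0.04, adjusted p = 1.2e-09) and in KO cells (-0.36, SE 0.04, adjusted p = 2.7e-06), and KO exceeded WT by 0.12 (SE 0.04) under DMSO (adjusted p = 0.0258) and by 0.36 (SE 0.04) under Nutlin-3a (adjusted p = 1.3e-06). The call under DMSO was lost without any 1 of the 4 DMSO libraries (adjusted p from 0.0662 to 0.182) and with DESeq2 size factors, and its difference of responses (0.24) was lost without WT DMSO replicate 1 or KO DMSO replicate 1.

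POLR1C, a subunit shared by RNA polymerases I and III, went the other way. It stood at 62.3 and 59.2 CPM under DMSO and 70.3 and 66.0 under Nutlin-3a in WT cells, and 49.98 and 51.4 under DMSO and 51.1 and 49.6 under Nutlin-3a in KO cells, so both WT Nutlin-3a libraries were the highest of the 8. POLR1C rose in WT cells (0.17, SE 0.06, adjusted p = 0.0146), but not without WT DMSO replicate 2 (adjusted p = 0.142), and it was lower in KO cells under DMSO (-0.26, adjusted p = 4.7e-04) and under Nutlin-3a (-0.44, adjusted p = 1.6e-06). RRN3, the factor that brings polymerase I to its promoter, read 111 and 111 CPM under DMSO and 91.8 and 98.1 under Nutlin-3a in WT cells, and 98.2 and 103 under DMSO and 94.4 and 93.2 under Nutlin-3a in KO cells. RRN3 fell in WT cells (-0.23, SE 0.05, adjusted p = 6.7e-04) and was -0.10 in KO cells, not called (95% interval -0.21 to -0.00), although called without WT Nutlin-3a replicate 2. RRN3 has near-identical pseudogene copies in the tables, so its reads can be split among them, and its lower level in KO cells under DMSO (-0.14) was lost without WT DMSO replicate 1 or 2 or KO DMSO replicate 1.

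POLR1A and POLR1B encode the largest and the second-largest subunit of the polymerase. POLR1B, at 104 and 96.4 CPM under DMSO and 93.0 and 99.5 under Nutlin-3a in WT cells, and 85.0 and 88.7 under DMSO and 85.3 and 84.7 under Nutlin-3a in KO cells, was lower in KO cells under DMSO (-0.21, SE 0.05, adjusted p = 0.00236) and under Nutlin-3a (-0.18), and its response was -0.06 in WT (interval -0.17 to 0.05) and -0.03 in KO cells, neither called. Its call under DMSO was lost without WT DMSO replicate 1 (adjusted p = 0.0650). For POLR1A the libraries read 95.2 and 90.3 CPM under DMSO and 84.0 and 127 under Nutlin-3a in WT cells, and 74.2 and 79.4 under DMSO and 71.0 and 77.4 under Nutlin-3a in KO cells. WT Nutlin-3a replicate 2 stood 1.51-fold above its partner, the widest replicate gap of any member, with NHP2 in the same group next at 1.17-fold. None of its comparisons was called, and without that library the WT response turned from 0.18 to -0.15 (adjusted p = 0.0300), while without replicate 1 it was 0.47 (adjusted p = 4.4e-09). With either of these libraries left out, KO cells were called lower than WT cells for POLR1A in both treatments.

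The box C/D snoRNP proteins fell in both genotypes, and all 3 had a called difference of responses. For comparison, 29.2% of all tested genes fell in WT and 20.6% in KO cells, and 14.2% had a called positive difference. NOP56 is a core scaffold protein of the particle, and it had the largest fall of any member in WT cells. It stood at 471 and 472 CPM under DMSO and 278 and 268 under Nutlin-3a in WT cells, and 355 and 340.1 under DMSO and 281 and 290.3 under Nutlin-3a in KO cells, with both WT DMSO libraries above all 6 others. Its level was 42.1% lower with Nutlin-3a in WT cells (-0.79, SE 0.05, adjusted p = 3.4e-11) and 17.8% lower in KO cells (-0.28, SE 0.05, adjusted p = 6.6e-05), a difference of 0.51 (SE 0.06) with adjusted p = 1.2e-05. Between genotypes NOP56 was -0.44 under DMSO (adjusted p = 1.2e-07) and 0.07 under Nutlin-3a, not called (interval -0.03 to 0.16).

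NOP58, the partner of NOP56 in the same scaffold, read 184 and 186 CPM under DMSO and 133 and 132 under Nutlin-3a in WT cells, and 167 and 168 under DMSO and 142 and 147 under Nutlin-3a in KO cells. The methyltransferase FBL (fibrillarin), which adds the methyl groups, read 347 and 356 CPM under DMSO and 251 and 223 under Nutlin-3a in WT cells, and 322 and 323 under DMSO and 255 and 269 under Nutlin-3a in KO cells. For both genes the order of the groups was WT DMSO, KO DMSO, KO Nutlin-3a and WT Nutlin-3a from high to low. NOP58 fell by 0.48 (SE 0.04) in WT (adjusted p = 2.1e-08) and by 0.21 (SE 0.04) in KO cells (adjusted p = 7.2e-04), and FBL by 0.57 (SE 0.05) (adjusted p = 3.3e-08) and 0.30 (SE 0.05) (adjusted p = 1.6e-04). KO against WT turned from lower under DMSO (NOP58 -0.15, FBL -0.12) to higher under Nutlin-3a (NOP58 0.13, FBL 0.14). The FBL value under DMSO sat at the threshold (adjusted p = 0.0497) and was lost in 13 of 20 alternatives, among them each 1 of 6 libraries left out (the 4 DMSO and the 2 KO Nutlin-3a libraries). Its value under Nutlin-3a was lost without WT DMSO replicate 1, WT Nutlin-3a replicate 2 or KO Nutlin-3a replicate 2, and its difference of responses (0.27) without WT DMSO replicate 2, either KO DMSO library or KO Nutlin-3a replicate 2. For NOP58 the call under DMSO was lost without WT DMSO replicate 2 or KO DMSO replicate 1 and that under Nutlin-3a without KO Nutlin-3a replicate 2.

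The 3 box H/ACA snoRNP proteins also fell in both genotypes, while their genotype differences were not of 1 sign. The shares of all tested genes that fell were 29.2% in WT and 20.6% in KO cells. DKC1 (dyskerin) is the pseudouridine synthase of these particles and also a part of telomerase, and it read 252 and 256 CPM under DMSO and 181 and 176 under Nutlin-3a in WT cells, and 192 and 197 under DMSO and 164 and 165 under Nutlin-3a in KO cells. All WT DMSO values lay above the rest, and the WT and KO Nutlin-3a libraries lay close together. DKC1 fell in WT (-0.51, SE 0.04, adjusted p = 8.5e-09) and in KO cells (-0.24, SE 0.04, adjusted p = 2.0e-04), was -0.39 in KO against WT cells under DMSO (adjusted p = 3.4e-07), and had a difference of responses of 0.27 (SE 0.06). Under Nutlin-3a its -0.12 was called, but not without KO Nutlin-3a replicate 1 or 2. GAR1, a structural protein of the particle, read 83.7 and 85.1 CPM under DMSO and 71.7 and 65.1 under Nutlin-3a in WT cells, and 73.7 and 74.2 under DMSO and 61.4 and 65.3 under Nutlin-3a in KO cells. It fell by 0.30 (SE 0.06) in WT and 0.22 (SE 0.05) in KO cells, the latter lost without KO Nutlin-3a replicate 1, and its difference of responses of 0.08 was not called (interval -0.09 to 0.24).

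NHP2, which helps the H/ACA particle hold its RNA, was higher in KO than in WT cells. Its libraries read 111 and 118 CPM under DMSO and 101 and 85.8 under Nutlin-3a in WT cells, and 136 and 138 under DMSO and 117 and 125 under Nutlin-3a in KO cells, and in each treatment both KO libraries lay above both WT libraries. The log2 fold change of KO over WT was 0.26 (SE 0.06) under DMSO (adjusted p = 0.00172) and 0.37 (SE 0.06) under Nutlin-3a (adjusted p = 7.5e-05). Nutlin-3a lowered NHP2 in WT cells (-0.30, SE 0.06, adjusted p = 7.2e-04). In KO cells it was -0.19 (adjusted p = 0.0247), lost without WT DMSO replicate 1, either KO DMSO library or KO Nutlin-3a replicate 1, and the difference of 0.11, not called with all 8 libraries, was called without WT Nutlin-3a replicate 1.

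NOLC1 and TCOF1, related phosphoproteins that link snoRNPs and RNA polymerase I, were both lower in KO cells under DMSO, as were 30.1% of all tested genes. NOLC1 (Nopp140), a chaperone of snoRNPs, stood at 432 and 423 CPM under DMSO and 264 and 273 under Nutlin-3a in WT cells, and 320.0 and 320.3 under DMSO and 249.5 and 259 under Nutlin-3a in KO cells. The WT and KO Nutlin-3a libraries lay close together, and KO DMSO lay between them and WT DMSO. NOLC1 fell in WT (-0.67, SE 0.05, adjusted p = 2.6e-10) and KO cells (-0.33, SE 0.04, adjusted p = 9.2e-06), with a difference of 0.34 (SE 0.06), and was -0.42 in KO cells under DMSO (adjusted p = 2.0e-07). TCOF1 (treacle) recruits UBTF and the polymerase and is mutated in Treacher Collins syndrome, and it stood at 298 and 297 CPM under DMSO and 247 and 263 under Nutlin-3a in WT cells, and 176 and 172 under DMSO and 175 and 181 under Nutlin-3a in KO cells. All 4 KO libraries lay below all 4 WT libraries, and at 41.4% below WT under DMSO (-0.77, SE 0.05, adjusted p = 6.4e-11) TCOF1 had the largest genotype difference of any member. Under Nutlin-3a it was -0.52 (adjusted p = 1.6e-08). TCOF1 fell in WT cells (-0.22, SE 0.05, adjusted p = 4.4e-04), was 0.03 in KO cells, not called (interval -0.07 to 0.13), and its difference of 0.25 was lost without KO DMSO replicate 2 or KO Nutlin-3a replicate 2.

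All 10 small subunit processing factors were lower in KO cells under DMSO, and with Nutlin-3a 6 fell and 2 rose in WT cells against 2 and 1 in KO cells. Of all tested genes 30.1% were lower in KO cells under DMSO. With Nutlin-3a 29.2% of all genes fell and 29.4% rose in WT cells, and 20.6% fell and 18.1% rose in KO cells. The 20% of these factors that fell in KO cells was thus near the share of all genes. UTP20, a large repeat protein of the 18S processome, stood at 122 and 125 CPM under DMSO and 70.8 and 82.9 under Nutlin-3a in WT cells, and 90.5 and 91.1 under DMSO and 73.0 and 76.8 under Nutlin-3a in KO cells, highest in both WT DMSO libraries. It fell in WT (-0.68, SE 0.06, adjusted p = 1.8e-08) and in KO cells (-0.28, SE 0.06, adjusted p = 0.00124), with a difference of 0.41 (SE 0.09) and KO against WT at -0.44 under DMSO. RRP9, a protein of the U3 snoRNP that guides the first cuts, read 101 and 100.4 CPM under DMSO and 70.6 and 68.4 under Nutlin-3a in WT cells, and 66.1 and 66.4 under DMSO and 63.8 and 65.0 under Nutlin-3a in KO cells. RRP9 fell in WT cells alone by the calls (-0.54, SE 0.05, adjusted p = 1.9e-08), was -0.04 in KO cells (interval -0.14 to 0.06), and the tested difference was 0.49 (SE 0.07), adjusted p = 2.9e-05. Its KO level was -0.60 against WT under DMSO (adjusted p = 3.1e-09) and -0.11 under Nutlin-3a, not called, although called without WT Nutlin-3a replicate 2.

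NOP14, a partner of the 18S methyltransferase EMG1, read 147 and 142 CPM under DMSO and 104 and 109.7 under Nutlin-3a in WT cells, and 96.0 and 97.9 under DMSO and 89.2 and 91.0 under Nutlin-3a in KO cells. It fell in WT cells (-0.44, SE 0.05, adjusted p = 2.2e-07) with a difference of 0.33 (SE 0.07), and it was lower in KO cells in both treatments (-0.58 and -0.24). In KO cells its response of -0.11 was not called with all 8 libraries, but was without WT Nutlin-3a replicate 2. WDR43, an early component that binds the precursor during transcription, went against the rest at 155 and 161 CPM under DMSO and 188 and 186 under Nutlin-3a in WT cells, and 115 and 116 under DMSO and 131 and 139 under Nutlin-3a in KO cells. Both Nutlin-3a libraries lay above both DMSO libraries in each genotype, and all KO libraries lay below all WT libraries. WDR43 rose in WT (0.24, SE 0.05, adjusted p = 1.9e-04) and in KO cells (0.22, SE 0.05, adjusted p = 9.3e-04), while KO against WT was -0.45 under DMSO and -0.47 under Nutlin-3a (adjusted p = 1.3e-07 and 5.5e-08). Its difference of responses was -0.02, not called (interval -0.16 to 0.12).

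BYSL (bystin), a late small subunit assembly factor, read 69.4 and 71.3 CPM under DMSO and 78.9 and 77.1 under Nutlin-3a in WT cells, and 59.0 and 54.9 under DMSO and 60.9 and 61.6 under Nutlin-3a in KO cells. It rose in WT cells (0.15, SE 0.05, adjusted p = 0.0215), but not without WT DMSO replicate 1 or 2 (adjusted p = 0.0809 and 0.0574), and it was lower in KO cells under DMSO (-0.31) and under Nutlin-3a (-0.35). NAT10, which acetylates cytidines of 18S RNA, fell in WT cells (-0.32, SE 0.06, adjusted p = 1.1e-04) and was lower in KO cells in both treatments (-0.36 and -0.20). Its fall in KO cells (-0.16, adjusted p = 0.0338) was lost in 11 alternatives, among them without WT DMSO replicate 1, KO DMSO replicate 2 or either KO Nutlin-3a library. UTP15, WDR75 and HEATR1 belong, like WDR43, to the UTP-A complex, which binds the precursor first. WDR75 and HEATR1 fell by 0.17 and 0.15 in WT cells and were lower in KO cells under DMSO (-0.13 and -0.14), all small changes. For HEATR1 these calls were lost without any 1 of 3 libraries in WT cells (WT DMSO replicate 1 or 2, WT Nutlin-3a replicate 1) and of 2 under DMSO (WT DMSO replicate 2, KO DMSO replicate 2), and for WDR75 without WT DMSO replicate 1 in both and either KO DMSO library under DMSO. UTP15 and RRP12, an export factor of pre-ribosomes, were not called in either response (UTP15 -0.04 and 0.05, RRP12 0.03 and 0.04). Both were lower in KO cells under DMSO (UTP15 -0.32, RRP12 -0.21) and under Nutlin-3a (UTP15 -0.23, RRP12 -0.21). The RRP12 call under DMSO was lost without WT DMSO replicate 1 and the UTP15 call under Nutlin-3a without replicate 1 of either Nutlin-3a group.

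Large subunit factors were lower in KO cells under DMSO in 9 of 9 cases, and 8 of 9 fell with Nutlin-3a in WT cells against 2 of 9 in KO cells. The shares of all tested genes were 30.1%, 29.2% and 20.6% in that order, so the 22.2% in KO cells was near that of all genes. RRP1B, a nucleolar protein that binds chromatin and phosphatase 1, read 208 and 206 CPM under DMSO and 147 and 153 under Nutlin-3a in WT cells, and 161 and 163 under DMSO and 139 and 143 under Nutlin-3a in KO cells. GNL3 (nucleostemin), a GTPase of proliferating cells, read 314 and 313 CPM under DMSO and 233 and 227 under Nutlin-3a in WT cells, and 227 and 235 under DMSO and 195 and 203 under Nutlin-3a in KO cells. In both genes WT DMSO was highest and KO Nutlin-3a lowest, with WT Nutlin-3a and KO DMSO between them. RRP1B fell in WT (-0.47, SE 0.04, adjusted p = 3.6e-08) and in KO cells (-0.20, SE 0.04, adjusted p = 0.00146), and GNL3 likewise (-0.45, SE 0.04, adjusted p = 8.2e-08 and -0.21, SE 0.04, adjusted p = 8.7e-04). The KO level under DMSO was -0.35 for RRP1B and -0.44 for GNL3, and the differences of responses were 0.27 and 0.23, the latter lost without WT DMSO replicate 1, KO DMSO replicate 1 or KO Nutlin-3a replicate 2.

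NOP16, a large subunit assembly protein and a known MYC target, differed most between the genotypes in this role. It read 76.6 and 77.2 CPM under DMSO and 63.0 and 59.3 under Nutlin-3a in WT cells, and 45.2 and 48.2 under DMSO and 46.8 and 49.0 under Nutlin-3a in KO cells, with all KO libraries below all WT libraries. KO against WT was -0.72 (SE 0.06) under DMSO (adjusted p = 2.3e-09) and -0.35 (SE 0.06) under Nutlin-3a (adjusted p = 2.7e-05). It fell in WT cells (-0.33, SE 0.06, adjusted p = 4.7e-05) and was 0.04 in KO cells (interval -0.08 to 0.16), a difference of 0.37 (SE 0.08) (adjusted p = 0.00189). The PeBoW complex of PES1, BOP1 and WDR12 acts in the processing of the precursor to 28S RNA. PES1 read 219.8 and 221 CPM under DMSO and 184 and 184 under Nutlin-3a in WT cells, and 163 and 155 under DMSO and 153 and 156 under Nutlin-3a in KO cells, and KO libraries lay below WT libraries in both treatments. The 3 partners fell in WT cells (PES1 -0.26, BOP1 -0.34, WDR12 -0.20), and none was called in KO cells (PES1 -0.04, BOP1 -0.09, WDR12 -0.02). Under DMSO PES1 (-0.47, SE 0.04, adjusted p = 3.4e-08) and BOP1 (-0.51, SE 0.06, adjusted p = 2.8e-07) were lower in KO cells by more than WDR12 (-0.15), whose call was lost without any 1 of 3 DMSO libraries (all but KO DMSO replicate 1). The differences of responses of PES1 (0.22) and BOP1 (0.25) were each lost without any 1 of 4 libraries. Those were WT DMSO replicates 1 and 2, KO DMSO replicate 2 and KO Nutlin-3a replicate 2 for PES1, and WT DMSO replicate 1, KO DMSO replicates 1 and 2 and KO Nutlin-3a replicate 2 for BOP1.

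GNL2, a nucleolar GTPase, fell in WT cells (-0.22, SE 0.05, adjusted p = 0.00145), though not without WT DMSO replicate 1, and was lower in KO cells in both treatments (-0.48 and -0.28). Its difference of responses (0.21, adjusted p = 0.0482) was lost in 12 alternatives, among them the removal of any 1 library other than WT Nutlin-3a replicate 1. PPAN, a large subunit assembly factor, fell in WT cells (-0.31, SE 0.08, adjusted p = 0.00259) and was -0.46 in KO cells under DMSO (adjusted p = 6.7e-05), and it overlaps a readthrough transcript, PPAN-P2RY11, that can share its reads. NOP2, the 28S cytosine methyltransferase, was not called in either response (-0.06 and 0.02) and was lower in KO cells under DMSO (-0.34, SE 0.05, adjusted p = 7.9e-06) and under Nutlin-3a (-0.26).

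Of the 4 abundant nucleolar proteins, NCL, NPM1 and MYBBP1A fell in WT cells and DDX21 did not pass the test. The share of all tested genes that fell in WT cells was 29.2%. NCL, which binds the precursor, stood at 1843 and 1907 CPM under DMSO and 1166 and 1183 under Nutlin-3a in WT cells. In KO cells NCL stood at 1324 and 1331 CPM under DMSO and 1048 and 1099.7 under Nutlin-3a. Both WT DMSO libraries were far above the rest, and KO DMSO lay between them and the Nutlin-3a groups. NCL was 37.3% lower with Nutlin-3a in WT (-0.67, SE 0.05, adjusted p = 4.1e-10) and 19.1% lower in KO cells (-0.31, SE 0.05, adjusted p = 3.4e-05), with a difference of 0.37 (SE 0.07). KO against WT was -0.50 under DMSO (adjusted p = 3.1e-08) and -0.13 under Nutlin-3a, the latter lost without KO Nutlin-3a replicate 1.

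NPM1 stood at 1987 and 2036 CPM under DMSO and 1579 and 1455 under Nutlin-3a in WT cells, and 1646 and 1656 under DMSO and 1421 and 1463 under Nutlin-3a in KO cells, in the same order of groups for the DMSO libraries, with the Nutlin-3a groups close together. NPM1 fell in WT (-0.41, SE 0.05, adjusted p = 9.6e-07) and KO cells (-0.20, SE 0.05, adjusted p = 0.00380), the latter lost without KO Nutlin-3a replicate 1 (adjusted p = 0.0580), and it was -0.28 in KO cells under DMSO (adjusted p = 6.4e-05). Its difference of 0.21 was lost without any 1 library of the WT DMSO, KO DMSO and KO Nutlin-3a groups, and its many pseudogene copies can take up reads. MYBBP1A, a repressor that holds back MYB and can act on p53, read 159 and 149 CPM under DMSO and 114 and 118 under Nutlin-3a in WT cells, and 117 and 119.7 under DMSO and 120.1 and 125 under Nutlin-3a in KO cells. MYBBP1A fell in WT cells (-0.41, SE 0.05, adjusted p = 7.2e-07) and was 0.05 in KO cells, not called (interval -0.05 to 0.15), so that KO against WT was -0.38 under DMSO (adjusted p = 1.7e-06) and 0.08 under Nutlin-3a, not called. The tested difference of responses was 0.46 (SE 0.07), adjusted p = 5.7e-05.

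DDX21, an RNA helicase of rRNA transcription and processing, differed between the genotypes and had no called response to Nutlin-3a. It read 497 and 518 CPM under DMSO and 482 and 524 under Nutlin-3a in WT cells, and 355 and 372 under DMSO and 364 and 379.6 under Nutlin-3a in KO cells, with all KO libraries below all WT libraries. KO against WT was -0.48 (SE 0.05) under DMSO (adjusted p = 1.8e-07) and -0.44 (SE 0.05) under Nutlin-3a (adjusted p = 5.8e-07). Its response was -0.01 in WT (interval -0.12 to 0.10) and 0.03 in KO cells (interval -0.07 to 0.14), neither called, although the WT value was 0.10 (adjusted p = 0.0136) without the 3 libraries that stood apart. The heat map of levels by library shows UBTF, NHP2, WDR43 and DDX21 apart from the common pattern.

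**Figure D5:**
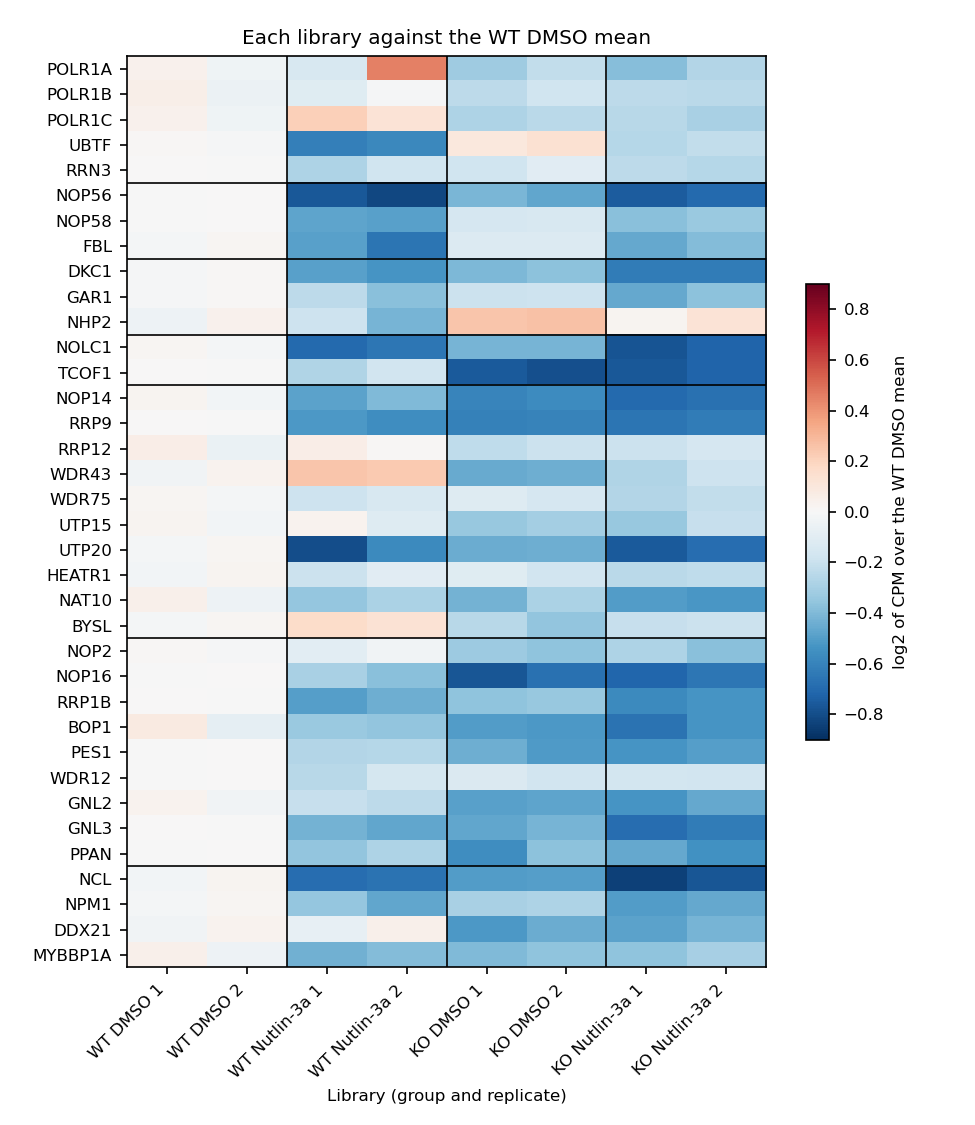
Log2 ratio of the CPM of each member in each of the 8 libraries to its mean in WT DMSO, red for higher and blue for lower, with rows ordered by role. Most rows are blue in the 6 libraries outside WT DMSO, while UBTF and NHP2 are red in the KO DMSO libraries, and POLR1A in WT Nutlin-3a replicate 2 stands out from its partner.

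The members with and without an E-box in the promoter table were set side by side, with no test. In the WT response the median log2 fold change was -0.31 over the 14 members with CACGTG and -0.26 over the 16 without, and 10 of 14 with it fell against 12 of 16 without it. In the KO response the order was the other way, with medians of -0.04 with and -0.10 without the motif. Under DMSO, KO against WT had medians of -0.44 with and -0.27 without the motif, and 14 of 14 with it were called lower against 13 of 16 without it. Of all 36 members 33 were lower there. Of all tested genes, with or without the motif, 29.2% fell in the WT response and 30.1% were lower in KO cells under DMSO. The share among all genes with CACGTG was not taken. Under Nutlin-3a the medians were -0.23 and -0.10. WDR43, whose window is printed above, was lower in KO cells and rose with Nutlin-3a. NOP56, with the deepest WT fall, had no CACGTG within the 300 bases of a matched promoter. The part of the motif in these values was not tested.

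Other genes of the pathway were counted in the same way. Of 142 further ribosome biogenesis genes, 90 fell and 14 rose with Nutlin-3a in WT cells (median -0.23), and 49 fell and 10 rose in KO cells (median -0.09). In KO against WT cells, 108 were lower and 6 higher under DMSO (median -0.28), and 64 lower and 25 higher under Nutlin-3a (median -0.11). The difference of responses was positive for 49 (34.5%) and negative for 5 (3.52%), against 14.2% and 13.4% of all tested genes. Among genes at least as abundant as the lowest member these shares were 19.9% and 18.1%. Among genes at least as abundant as the lowest member, the shares lower were 38.9% in the WT response, 30.2% in the KO response, 38.6% under DMSO and 36.9% under Nutlin-3a, against 63.4%, 34.5%, 76.1% and 45.1% of the 142, so the KO share was near that of such genes. The shares higher, in the same order, were 32.2%, 19.0%, 30.3% and 32.5% of such genes, against 9.86%, 7.04%, 4.23% and 17.6% of the 142. Among 15 genes of the RNA exosome and 5′ exonucleases, which trim precursor ends, 14 fell in WT cells (93.3%) and 11 in KO cells (73.3%). Under DMSO 12 of them were lower in KO cells (80%), and under Nutlin-3a 5 were lower and 4 higher.

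EXOSC8, a ring subunit of the exosome, had the largest values of these named genes, at 61.6 and 63.5 CPM under DMSO and 27.2 and 24.7 under Nutlin-3a in WT cells, and 26.2 and 26.3 under DMSO and 19.3 and 18.2 under Nutlin-3a in KO cells. It fell in WT cells (-1.27, SE 0.07, adjusted p = 6.5e-12) and was below WT in KO cells under DMSO (-1.25, SE 0.06, adjusted p = 5.9e-12). EXOSC9, another ring subunit, fell by 0.94 (SE 0.06) in WT cells, and DIS3, the catalytic subunit, was -1.11 (SE 0.05) in KO cells under DMSO. CD3EAP, a polymerase I subunit, fell in WT cells (-0.998, SE 0.07) and was -0.63 in KO cells under DMSO, and the shared polymerase subunit gene POLR2E had -0.50 and -0.41. Of the snoRNP genes, NHP2L1 (-0.55) and PIH1D1 (-0.57) led the WT falls, and the assembly factors NUFIP1 (-1.06) and RUVBL2 (-0.37) had the smallest p in KO cells under DMSO. For the small subunit UTP18 and RRP7A fell in WT cells (both -0.60), and PNO1 and DHX37 were lower in KO cells under DMSO (both -0.71). For the large subunit the endonuclease gene LAS1L fell in WT cells (-0.72) and the GTPase GTPBP4 was lower in KO cells under DMSO (-0.69). GLTSCR2, a nucleolar large subunit factor, went the other way and read 169 and 166 CPM under DMSO and 290.4 and 284 under Nutlin-3a in WT cells, and 263 and 272 under DMSO and 338 and 309 under Nutlin-3a in KO cells. GLTSCR2 rose in WT (0.78, SE 0.05, adjusted p = 1.4e-10) and in KO cells (0.27), and it was higher in KO cells under DMSO (0.68, SE 0.05, adjusted p = 1.1e-09).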

How the data were processed

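The authors deposited whole read counts and RPKM values per gene for 8 libraries. Per the submitters' processing notes HTSeq 0.8.0 was among the tools, beside the aligners Bowtie2 2.2.9.0 and TopHat2 2.1.1, and the build was hg19 (GRCh37). Which annotation and strand setting were used is not given in the sources used here, and genes that overlap or have close copies may therefore exchange reads. The deposited RPKM values are counts scaled by gene length and total counts, as a check of both tables showed. The libraries were strand-specific, per the labels' protocols. Groups and replicate numbers came from the sample titles.

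In R 4.3.3, edgeR 4.0.16 fitted 4 group means over the 8 libraries (4 residual degrees of freedom) after filterByExpr, which kept 15879 genes and removed 9490, and TMM scaling, with a common biological coefficient of variation of 0.0424. The robust quasi-likelihood F test, two-sided, was applied to 5 comparisons, with Benjamini-Hochberg adjustment over all tested genes and a threshold of 0.05. SE is the log2 fold change over the square root of F, and intervals are 95%. With 1 KO population, p values between genotypes cover only the replicate spread. The script was tested on simulated data.

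Members and gene lists were chosen with earlier results of these data known, so counts are descriptions. Values per library are given, in each of 7 roles, for the 2 members, at most, whose calls in a comparison had the lowest p, and for members called against the majority, and other pathway genes are named by the smallest p in each of 5 roles. POLR1A was added after its values were seen. Promoters came from RefSeq, GRCh38.p14, which is not the build of the files. Alternatives were the size factors and Wald test of DESeq2 1.42.0, upper-quartile factors, no filter, a replicate block, fits of 4 libraries, limma 3.58.1 on log2 RPKM, other thresholds and left-out libraries.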

Additional observations from a re-analysis of the deposited data

Results flagged for a closer look

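For 19 members the Nutlin-3a response differed between KO and WT cells in edgeR's interaction test. Every one of these differences, KO minus WT on the log2 scale, was positive. Over all tested genes 14.2% had a called positive and 13.4% a called negative difference. Among genes at least as abundant as the lowest member the shares were 19.9% and 18.1%. Among the snoRNP proteins and their chaperones the difference was 0.51 (SE 0.06) for NOP56, 0.27 (SE 0.06) for NOP58, 0.27 (SE 0.08) for FBL, 0.27 (SE 0.06) for DKC1, 0.34 (SE 0.06) for NOLC1 and 0.25 (SE 0.07) for TCOF1. In the polymerase I group only UBTF passed, with 0.24 (SE 0.06). For small subunit factors it was 0.49 (SE 0.07) for RRP9, 0.41 (SE 0.09) for UTP20 and 0.33 (SE 0.07) for NOP14. Large subunit factors gave 0.37 (SE 0.08) for NOP16, 0.27 (SE 0.06) for RRP1B, 0.25 (SE 0.08) for BOP1, 0.23 (SE 0.06) for GNL3, 0.22 (SE 0.06) for PES1 and 0.21 (SE 0.07) for GNL2. Nucleolar proteins gave 0.46 (SE 0.07) for MYBBP1A, 0.37 (SE 0.07) for NCL and 0.21 (SE 0.07) for NPM1. Of these 19, NPM1, FBL, BOP1, PES1 and GNL2 lost the call without any 1 of 4 or more libraries. UBTF, TCOF1 and GNL3 also lost it without certain single libraries, which are named above. Part of each value is the WT DMSO level, which was above the KO DMSO level for all of them but UBTF.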

How the results depend on the processing

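Over 3564 values of a member under an alternative, 3203 kept their side of the threshold, 301 lost the call and 58 gained one. Another 2 changed sign and were called in the main test or in the alternative. A change of sign with no call in either was counted among the 3203. POLR1A in the WT response was -0.15 without WT Nutlin-3a replicate 2 and 0.47 without replicate 1, and DDX21 in the WT response was 0.10 (adjusted p = 0.0136) without the 3 libraries that stood apart. Without these 3, the members lower and higher were 25 and 4 in the WT response, 17 and 1 in the KO response, 34 and 2 in KO against WT under DMSO and 24 and 3 under Nutlin-3a, and the differences of responses were positive for 19 and negative for 1. With at least 1.5-fold also asked for, 0 were higher in each comparison, while 5 were lower in the WT response, 0 in the KO response, 3 in KO against WT under DMSO and 0 under Nutlin-3a. At an adjusted p under 0.01, 1 was higher in the WT response, 1 in KO against WT under DMSO and 2 under Nutlin-3a. DESeq2 size factors and the DESeq2 Wald test each gave 1 higher under DMSO and 2 under Nutlin-3a. Fits of 4 libraries gave 2 higher in the KO response and 2 under Nutlin-3a. With limma-trend on log2(RPKM + 0.1) or log2(RPKM + 1), 2 were higher in the KO response and 7 under Nutlin-3a, and with no low-value filter 11 were lower under Nutlin-3a. With no low-count filter 1 difference of responses was negative. The causes of these moves were not tested beyond what stricter thresholds and fewer libraries remove.

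With each library left out in turn, 1 to 4 members were higher and 24 to 28 lower in the WT response, 1 to 2 and 10 to 18 in the KO response, 1 to 2 and 27 to 34 in KO against WT under DMSO, and 2 to 4 and 15 to 23 under Nutlin-3a, with 12 to 20 positive and 0 to 1 negative differences. A group left with 1 library was assumed to vary like the others. Correlations of same-numbered deviations lay between -0.02 and 0.16, which cannot show whether replicate numbers pair the samples. With the replicate number as a block, the members higher and lower were 3 and 27, 1 and 14, 2 and 32, and 4 and 18 in that order, with 18 positive and 0 negative differences.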

Other observations

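MYC proteins act through a network of related factors, and 10 of 11 of its genes listed here were found in the tables. MYC itself was nearly silent, at 0.144 to 1.22 CPM over the 8 libraries. The MXD proteins and MXI1 pair with MAX in place of MYC and repress. MXD4 read 73.7 and 66.4 CPM under DMSO and 144 and 147 under Nutlin-3a in WT cells, and 101 and 103 under DMSO and 105 and 103 under Nutlin-3a in KO cells, with WT Nutlin-3a above the other 6 libraries. It rose with Nutlin-3a in WT cells (1.05, SE 0.05, adjusted p = 3.3e-12) and was 0.02 in KO cells, not called, and the tested difference was -1.03 (SE 0.07) (adjusted p = 1.3e-08). KO cells had more MXD4 than WT cells under DMSO (0.54) and less under Nutlin-3a (-0.49).

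MXI1 read 25.7 and 23.5 CPM under DMSO and 40.2 and 37.4 under Nutlin-3a in WT cells, and 40.3 and 43.6 under DMSO and 52.1 and 45.4 under Nutlin-3a in KO cells, and was highest in KO Nutlin-3a. It rose in WT (0.66, SE 0.08, adjusted p = 9.6e-07) and in KO cells (0.22, SE 0.07, adjusted p = 0.0217) and was higher in KO cells under DMSO (0.77). MXD1, at a low level of 6.70 to 18.3 CPM, rose in both genotypes (1.35 in WT and 0.47 in KO cells). MXD3 moved the other way, from 25.9 and 27.9 CPM under DMSO to 12.4 and 10.2 under Nutlin-3a in WT cells (-1.24, SE 0.10, adjusted p = 1.8e-09), and fell by 0.98 (SE 0.08) in KO cells. MNT, another repressor that pairs with MAX, fell in WT (-0.45, SE 0.07, adjusted p = 1.2e-05) and in KO cells (-0.34, SE 0.06, adjusted p = 3.2e-04), against the rises of MXD4, MXI1 and MXD1 in WT cells. MAX rose by 0.18 in WT cells (adjusted p = 0.00829) and was 0.06 in KO cells, not called. No relation of these genes to the ribosome biogenesis genes was tested.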
